A study of Mus musculus with 14 samples.

Results

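The cytosolic ribosomal protein genes were examined in small intestinal organoids that lacked *Rnaseh2b*, *Atg16l1* or both. They were taken as the protein-coding genes of the deposited table whose symbols start with Rpl or Rps and a digit, together with *Rplp0*, *Rplp1*, *Rplp2* and *Rpsa*, without the Rps6k kinases and without pseudogenes. Of 83 genes with such a name, 81 had a mean of at least 10 on the linear scale over the 14 libraries, and these 81 are the members described below. The table held 18781 genes in all, of which 12804 passed the same filter and were tested. By name, 48 members belong to the large and 33 to the small ribosomal subunit. The lowest members were *Rpl38*, with a mean log2 value of 3.36, and *Rps29*, with 3.48. *Rpl24*, with 3.02, and *Rpl39l*, with -1.97, were below the filter, and *Rpl3l*, *Rpl10l* and *Rps4l* have no row in the table.

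The study used the organoids to ask whether loss of *Atg16l1* alters the p53 response where *Rnaseh2b* is missing. RNASEH2B is a subunit of RNase H2, the enzyme that takes misplaced ribonucleotides out of genomic DNA, and ATG16L1 is needed to build autophagosomes. The organoids were epithelial cultures grown from intestinal stem cells in Intesticult medium, with no treatment, and polyadenylated RNA was sequenced as stranded libraries. Controls, called WT here, carried floxed *Atg16l1* and floxed *Rnaseh2b* alleles without Cre and gave 4 libraries. *Rnaseh2b* ΔIEC organoids carried floxed *Rnaseh2b* and *Atg16l1* ΔIEC organoids floxed *Atg16l1*, each with a hemizygous Villin-Cre transgene, and they gave 2 and 4 libraries. *Atg16l1/Rnaseh2b* ΔIEC organoids carried floxed alleles of both genes with the same transgene and gave 4 libraries. Villin-Cre deletes in the intestinal epithelium, and the age of the donor mice is not given. The labels do not say whether libraries of a genotype came from separate mice, so each p-value below measures the spread between libraries. Sequencing lane 1 held the WT libraries, lane 2 held both single knockouts, and the *Atg16l1/Rnaseh2b* ΔIEC libraries were divided between the lanes. The depth of the libraries is unknown, since the deposited values are log2 values from which read counts cannot be recovered.

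A ribosome joins a small subunit, which reads the mRNA, to a large subunit, which forms the peptide bonds, and each subunit is built from ribosomal RNA and a set of ribosomal proteins in near equal copy numbers. The mRNAs of these proteins are among the most abundant of growing cells, and in the gut they are richest in the dividing crypt. Many of them start with a run of pyrimidines at the 5′ end, through which mTORC1 and LARP1 set their translation. Free ribosomal proteins such as RPL5 and RPL11 bind MDM2 and so stabilise p53 when ribosome assembly fails, and autophagy is a route by which cells break ribosomes down.

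The deleted genes fell in the genotypes named after them. *Atg16l1* read 9.43, 9.54, 9.44 and 9.44 (log2) in WT and 9.52 and 9.53 in *Rnaseh2b* ΔIEC, against 6.87, 7.35, 6.75 and 6.73 in *Atg16l1* ΔIEC and 8.37, 8.14, 8.57 and 8.47 in *Atg16l1/Rnaseh2b* ΔIEC libraries. It therefore fell by 2.54 ± 0.12 (log2, SE, n = 4 and 4, adjusted p = 1.6e-07) in *Atg16l1* ΔIEC but by 1.07 ± 0.12 (n = 4 and 4, adjusted p = 0.00032) in *Atg16l1/Rnaseh2b* ΔIEC organoids, and no library of either group overlapped WT. *Rnaseh2b* read 8.47, 8.41, 8.58 and 8.70 in WT, 7.21 and 7.15 in *Rnaseh2b* ΔIEC, and 7.92, 7.68, 7.79 and 7.84 in *Atg16l1/Rnaseh2b* ΔIEC libraries. It fell by 1.36 ± 0.09 (n = 2 and 4, adjusted p = 3.5e-06) and by 0.73 ± 0.08 (n = 4 and 4, adjusted p = 0.00019), respectively. Both targets thus kept more signal where they were deleted together than where either was deleted alone. The label of the cultures was checked against markers. Enterocyte, stem, Paneth and goblet cell markers all passed the filter, whereas of the 12 stromal and immune markers in the table *Col1a1*, *Col1a2*, *Pdgfra*, *Ptprc* and *Cd3e* were below it and *Vim* was the most abundant of the rest.

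Across the 81 members the levels were high but very uneven. The median member had a mean log2 value of 10.97, against 9.44 for all genes tested, although its annotated exons were shorter, with a median of 1781 against 4362 bases. Per kilobase of the principal transcript, the member levels ran from 4.82 for *Rpl38* to 15.57 for *Rpl8* on the log2 scale. Ribosomal protein genes have many processed pseudogenes, so reads of 50 bases may have no single place of origin. For each member, the 50-base stretches of its principal transcript that occur in no other annotated gene were counted. The median member had 44.5% such stretches, 48 members had less than 50%, and 10 had at least 80%, whereas the median was 97.2% for the mitochondrial ribosomal protein genes and 99.96% for the ribosome assembly genes. *Rps27*, with 1.35% of its stretches unique, and *Rpl35*, with 4.91%, share nearly their whole transcript with other genes.

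Members with more shared sequence had lower levels. The median level per kilobase (log2) was 9.99 for the members with less than 50% unique stretches and 12.69 for the others. Across the 81 genes, which are not independent replicates, the unique share and the level per kilobase had a Spearman correlation of 0.46 and a Pearson correlation of 0.45. Of the 17 members with a log2 level per kilobase under 8, 14 had less than 50% unique stretches. Among them were *Rps6*, the substrate of the S6 kinases, with a mean level per kilobase of 5.48 and 15.4% unique stretches, and *Rps27a*, which encodes a fusion of ubiquitin and a small-subunit protein, with 7.89 and 28.1%. *Rps16* and *Rps29* were low, at 5.59 and 4.84, with 58.4% and 64.2% unique stretches. The part that discarded or misplaced reads have in these levels was not tested.

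**Figure D1:**
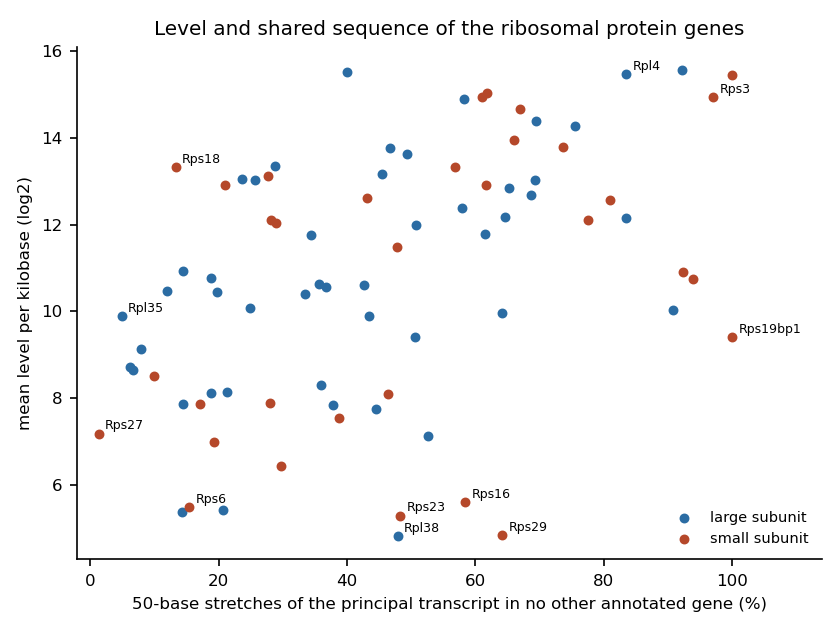
Mean level per kilobase of the principal transcript over the 14 libraries (log2, vertical axis) against the share of 50-base stretches of the principal transcript found in no other annotated gene (percent, horizontal axis), with 1 point per ribosomal protein gene and colours for the subunits. The median level was 9.99 for the 48 genes with less than 50% unique stretches and 12.69 for the others.

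Differences of the members between genotypes were small. In the fit without a covariate, no member differed by more than 0.33 (log2) between any pair of genotypes or by more than 0.36 in the interaction described below. None thus passed 0.5, whereas 4.75% of all genes tested did so between *Rnaseh2b* ΔIEC and WT and 5.69% between *Rnaseh2b* ΔIEC and *Atg16l1/Rnaseh2b* ΔIEC organoids. With lane as a covariate *Rpl10* passed 0.5 in *Rnaseh2b* ΔIEC against WT organoids, through a lane term that rests on the *Atg16l1/Rnaseh2b* ΔIEC libraries alone. A member is called changed below where the adjusted p from limma over all 12804 genes was under 0.05. In the 6 comparisons of a pair of genotypes, 33 members (40.7%) were called at least once and 48 never, while 54.1% of all genes tested were called at least once. *Rpl15* and *Rpl22l1* were called in 4 of them, and 17 members were called in 1. These comparisons share libraries, so the counts below are not independent of each other.

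Libraries of a genotype fell into pairs. In each genotype with 4 libraries, libraries 1 and 2 strayed from the genotype mean in the same genes, as did libraries 3 and 4. Their deviations correlated at 0.41 to 0.86 over all genes tested in the 6 pairs, and at 0.23 to 0.85 over the 81 members. In *Atg16l1/Rnaseh2b* ΔIEC organoids libraries 1 and 2 were in lane 2 and libraries 3 and 4 in lane 1, so that pair and lane coincide there. A lane covariate rests on these libraries alone, so it takes up their difference between pairs. In WT and *Atg16l1* ΔIEC organoids both pairs were in the same lane, and the labels do not say what a pair shares. In WT, libraries 3 and 4 were above libraries 1 and 2 for 78 of 81 members, with a median difference of 0.08 (log2), which is as large as the medians between genotypes given below except that between the single knockouts. In *Atg16l1* ΔIEC libraries the median of the same difference was -0.05, and where both genes were lost it was -0.00. Enterocyte markers differed between the pairs too, with a summed linear level of 333331 and 298864 in WT libraries 1 and 2 against 224826 and 222453 in libraries 3 and 4. In *Atg16l1* ΔIEC libraries their order was the reverse, with 316325 and 260131 against 426889 and 383952, and the part of these cells in the differences between pairs was not tested. With the correlation within pairs estimated by limma (0.645), 0 members were called in each of the 7 comparisons, while 7, 5, 5, 4, 8, 20 and 2 had an unadjusted p under 0.05 in the order in which the comparisons follow. The same fit called 5.69, 3, 0.664, 5.4, 3.73, 0.476 and 12.1% of all genes tested. With the pairs averaged, limma called 0 members as well, and 4, 3, 3, 2, 5, 11 and 0 had an unadjusted p under 0.05, but that fit called at most 2 of all 12804 genes in a comparison and so says little about the members. The share of all genes at an unadjusted p under 0.05 is not given for the fits by pairs. Such counts for members and gene lists, here and below, therefore stand without that background. With the correlation estimated, every call of a member below is lost, so the calls rest on taking the libraries of a pair as independent.

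After loss of *Rnaseh2b* alone most members had values slightly below WT. In *Rnaseh2b* ΔIEC against WT organoids, 61 of 81 members were below WT, with a median difference of -0.07 (log2) and a range from -0.33 to 0.26, while the median of all genes tested was 0.00. Of these, 10 members fell and 1 rose past the threshold, 13.6% of the members, beside 26.7% of all genes tested. The fallen members came from both subunits, 6 from the large and 4 from the small. Only 2 libraries stand for *Rnaseh2b* ΔIEC, since the study left out 2 others of this genotype for the quality of their read counts. Where library 1 or 2 of this genotype was left out, calls fell among the members and among all genes tested. The member median was then -0.09 without library 1 and -0.05 without library 2. Without WT library 3 or 4, 7 members were called, beside 20.8 and 21.7% of all genes tested. *Rpl23*, whose protein lies on the face between the subunits and can bind MDM2, read 12.99, 12.95, 13.02 and 13.04 in WT and 12.79 and 12.85 in *Rnaseh2b* ΔIEC libraries. The groups did not overlap, and it fell by 0.18 ± 0.04 (SE, n = 2 and 4, adjusted p = 0.0075).

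Other members called in *Rnaseh2b* ΔIEC organoids without overlap fell by similar amounts, and *Rps13* and *Rps12* fell by more, 0.33 and 0.23, without being called. *Rps3a1* fell by 0.20 ± 0.06 (adjusted p = 0.024), *Rpl35a*, a gene of Diamond-Blackfan anaemia, by 0.19 ± 0.05 (adjusted p = 0.019) and *Rps24* by 0.19 ± 0.05 (adjusted p = 0.020), with no overlap between the libraries of the groups. *Rpl15*, a large-subunit protein that is also mutated in Diamond-Blackfan anaemia, went the other way. It read 9.62, 9.64, 9.71 and 9.68 in WT against 9.95 and 9.91 in *Rnaseh2b* ΔIEC libraries, all of them above every WT library. It rose by 0.26 ± 0.05 (n = 2 and 4, adjusted p = 0.0019). Lane and genotype cannot be told apart here except through the *Atg16l1/Rnaseh2b* ΔIEC libraries. With lane as a covariate the member median was -0.06, in a fit that called 11.7% of all genes tested. That fit called 5 members, of which 3 were among the 11 above. Of these, 4 were lower and *Rpl10* was higher, while *Rpl15* was not called, at 0.16 (adjusted p = 0.11). Without the covariate the *Rpl10* means were 8.67 in *Rnaseh2b* ΔIEC and 8.70 in WT organoids.

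After loss of *Atg16l1* alone most members had values slightly above WT. In *Atg16l1* ΔIEC against WT organoids, 69 of 81 members were above WT, with a median difference of 0.06 (log2) and a range from -0.10 to 0.23. Past the threshold, 7 members rose and 0 fell, which is 8.64% of the members beside 19.1% of all genes tested. The count moved with single libraries, to 3 without WT library 1 or 2, 4 without WT library 3 or *Atg16l1* ΔIEC library 2, and 11 without WT library 4. The share of all genes called in these fits is not given, so the moves cannot be read as particular to the members. No member fell by the limma test, and 14 members had an unadjusted p under 0.05 in either direction. The same held for 4388 of all 12804 genes tested. *Rps16*, a small-subunit protein whose tail reaches the decoding site, read 5.66, 5.61, 5.72 and 5.78 in WT and 5.94, 5.86, 6.02 and 5.82 in *Atg16l1* ΔIEC libraries. The lowest *Atg16l1* ΔIEC library was above the highest WT library, and the gene rose by 0.22 ± 0.05 (n = 4 and 4, adjusted p = 0.013).

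*Rps28*, which lies by the exit site of the mRNA, read 9.999, 10.06, 10.09 and 10.16 in WT and 10.30, 10.30, 10.19 and 10.17 in *Atg16l1* ΔIEC libraries. The groups came close without overlapping, and it rose by 0.16 ± 0.04 (n = 4 and 4, adjusted p = 0.024). *Rpl22l1*, the paralog of *Rpl22*, read 10.74, 10.80, 10.83 and 10.76 in WT and 10.99, 11.03, 10.90 and 10.97 in *Atg16l1* ΔIEC libraries. All 4 were above WT, and the rise was 0.19 ± 0.03 (adjusted p = 0.0022). *Rpl21* rose by 0.19 ± 0.06 (adjusted p = 0.040) and *Rpl35* by 0.18 ± 0.05 (adjusted p = 0.015), both without overlap, and *Rpl41* and *Rps18* rose by 0.11 each with overlapping libraries. All WT libraries were in lane 1 and all *Atg16l1* ΔIEC libraries in lane 2, so that lane and genotype cannot be told apart within a lane. With lane as a covariate 10 of 81 members rose and 0 fell, in a fit that called 12.4% of all genes tested, and 4 of the 7 above were among them.

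Where both genes were lost, the members lay on both sides of WT. In *Atg16l1/Rnaseh2b* ΔIEC against WT organoids the median member difference was 0.01 (log2), with 47 members above and 34 below WT and a range from -0.13 to 0.32. Of the members, 6 rose and 2 fell, 9.88% beside 16.1% of all genes tested. With the libraries scaled to equal totals, 6 rose and 0 fell. In all, 3 members were called without *Atg16l1/Rnaseh2b* ΔIEC library 2 or WT library 1, 4 without WT library 3, and 5 on leaving out, in turn, *Atg16l1/Rnaseh2b* ΔIEC library 1, 3 or 4 or WT library 2. For these fits, too, the share of all genes called is not given. *Rpl27*, a large-subunit protein, read 7.30, 7.36, 7.59 and 7.48 in WT and 7.73, 7.76, 7.78 and 7.75 in *Atg16l1/Rnaseh2b* ΔIEC libraries. The latter were tightly grouped above every WT library, and the gene rose by 0.32 ± 0.06 (n = 4 and 4, adjusted p = 0.0058), a ratio of 1.25 on the linear scale.

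The remaining rises in *Atg16l1/Rnaseh2b* ΔIEC organoids were smaller. *Rpl22l1* read 10.98, 10.92, 11.01 and 10.96 there, above all WT libraries, and rose by 0.19 ± 0.03 (adjusted p = 0.0052). *Rpl27a* rose by 0.17 ± 0.05 (adjusted p = 0.040), *Rps27l*, a paralog of *Rps27* and a known p53 target, by 0.15 ± 0.05 (adjusted p = 0.045) and *Rpl41*, which encodes the smallest ribosomal protein, by 0.14 ± 0.03 (adjusted p = 0.016), all without overlap. *Rpl15* rose by 0.12, and *Rpl39* and *Rpl23* fell by 0.13 each, with libraries that overlapped WT. Between WT and *Atg16l1/Rnaseh2b* ΔIEC libraries of lane 1 alone, 5 members were called, 2 higher and 3 lower, and 3 of them were among the 8 above. The same fit called 10.2% of all genes tested.

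Against *Rnaseh2b* ΔIEC organoids, most members had slightly higher values where *Atg16l1* was lost too. In this comparison 73 of 81 members were higher in *Atg16l1/Rnaseh2b* ΔIEC organoids, with a median difference of 0.08 (log2). Past the threshold, 6 rose and 1 fell, 8.64% of the members beside 25.5% of all genes tested, and with equal totals 17 rose and 0 fell, in a fit that called 28.7% of all genes tested and moved their median to 0.06. *Rpl13a*, a large-subunit protein that can also leave the ribosome to silence inflammatory mRNAs, read 10.56 and 10.41 in *Rnaseh2b* ΔIEC and 10.88, 10.71, 10.76 and 10.76 in *Atg16l1/Rnaseh2b* ΔIEC libraries. All 4 were above the other group, and it rose by 0.29 ± 0.06 (n = 4 and 2, adjusted p = 0.0061). *Rpl27a* and *Rpl31* rose by 0.18 each, *Rplp1*, a protein of the stalk that recruits elongation factors, by 0.18 ± 0.05 (adjusted p = 0.032) and *Rpl22l1* by 0.17 ± 0.04 (adjusted p = 0.010). *Rpl15* fell by 0.14 ± 0.05 (adjusted p = 0.045), from 9.95 and 9.91 to 9.83, 9.84, 9.71 and 9.76. Within lane 2, 3 members were called, beside 21% of all genes tested. Without *Atg16l1/Rnaseh2b* ΔIEC library 3 there were 4 calls, beside 20.5% of all genes tested. Where *Rnaseh2b* ΔIEC library 1 or 2 was left out, calls fell among the members and among all genes tested. The member median was then 0.10 without library 1 and 0.06 without library 2.

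Against *Atg16l1* ΔIEC organoids, most members had slightly lower values where *Rnaseh2b* was lost too. In this comparison 57 of 81 members were below 0, with a median difference of -0.05 (log2). Past the threshold, 1 rose and 11 fell, 14.8% of the members beside 25.1% of all genes tested. Of the 33 small-subunit members 10 fell and 0 rose, with a median of -0.06, and of the 48 large-subunit members 1 fell and 1 rose, with a median of -0.04. The difference between the subunits was not tested. With equal totals, 6 members fell and 1 rose. Within lane 2, 1 rose and 13 fell, beside 24.4% of all genes tested, and 5 of the 12 members above were among them. With lane as a covariate 3 rose and 12 fell, in a fit that called 31.1% of all genes tested, and 7 of the 12 were among them. Members called were 6 without *Atg16l1* ΔIEC library 2 or *Atg16l1/Rnaseh2b* ΔIEC library 3 and 7 without *Atg16l1* ΔIEC library 4, and the share of all genes called in these fits is not given. *Rps16* read 5.62, 5.64, 5.75 and 5.71 in *Atg16l1/Rnaseh2b* ΔIEC libraries, all below the 4 *Atg16l1* ΔIEC libraries and within the range of WT. It fell by 0.23 ± 0.05 (n = 4 and 4, adjusted p = 0.0093).

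*Rps28* read 10.05, 10.02, 10.06 and 10.02 in *Atg16l1/Rnaseh2b* ΔIEC libraries, again below all *Atg16l1* ΔIEC libraries, and fell by 0.20 ± 0.04 (adjusted p = 0.0072). *Rps18* fell by 0.14 ± 0.03 (adjusted p = 0.0077), *Rps14*, whose loss underlies the anaemia of the 5q- syndrome, by 0.14 ± 0.03 (adjusted p = 0.014) and *Rps3*, which lines the mRNA entry channel, by 0.13 ± 0.04 (adjusted p = 0.039), without overlap. *Rps10*, *Rps15*, *Rps19* and *Rps21* also fell, and *Rpl39* was the large-subunit member that did. The rise was that of *Rpl27*, by 0.19 ± 0.06 (adjusted p = 0.039).

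The single knockouts, whose libraries all came from lane 2, had the largest member median of the 6 comparisons. In *Rnaseh2b* ΔIEC against *Atg16l1* ΔIEC organoids, 72 of 81 members were lower, with a median difference of -0.14 (log2) beside 0.00 for all genes tested. Past the threshold, 13 fell and 1 rose, 17.3% of the members beside 6.81% of all genes tested. An unadjusted p under 0.05 from limma was found for 45 members, beside 2921 of all 12804 genes tested. In the other 6 comparisons of this report the share of members called was below that of all genes tested. With the replicate number as a block, 5 members fell and 0 rose between the single knockouts, in a fit that called 3.31% of all genes tested. The calls rested on the 2 *Rnaseh2b* ΔIEC libraries. Where either was left out, calls fell among the members and among all genes tested, and the share of members called was no longer above that of all genes. The member median was then -0.15 without library 1 and -0.12 without library 2. There were 5, 8 and 9 calls without *Atg16l1* ΔIEC library 2, 4 and 1, 22 without *Atg16l1* ΔIEC library 3 and 23 without *Atg16l1/Rnaseh2b* ΔIEC library 1. No share of all genes called is given for these fits, so the moves cannot be read as particular to the members. With equal totals 24 members fell and 0 rose, in a fit that called 7.35% of all genes tested and moved their median to -0.03. The members that fell in the deposited values were 9 of the small and 4 of the large subunit. *Rps16*, at 5.58 in both *Rnaseh2b* ΔIEC libraries, fell by 0.33 ± 0.07 (n = 2 and 4, adjusted p = 0.011), and *Rps28*, at 10.01 and 9.87, by 0.30 ± 0.05 (n = 2 and 4, adjusted p = 0.0073).

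*Rps19*, the gene most often mutated in Diamond-Blackfan anaemia, read 12.85 and 12.80 in *Rnaseh2b* ΔIEC and 13.13, 13.12, 12.93 and 13.06 in *Atg16l1* ΔIEC libraries. It did not overlap between the single knockouts and fell by 0.24 ± 0.06 (adjusted p = 0.038). The rise was again that of *Rpl15*, by 0.19 ± 0.05 (adjusted p = 0.035).

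**Figure D2:**
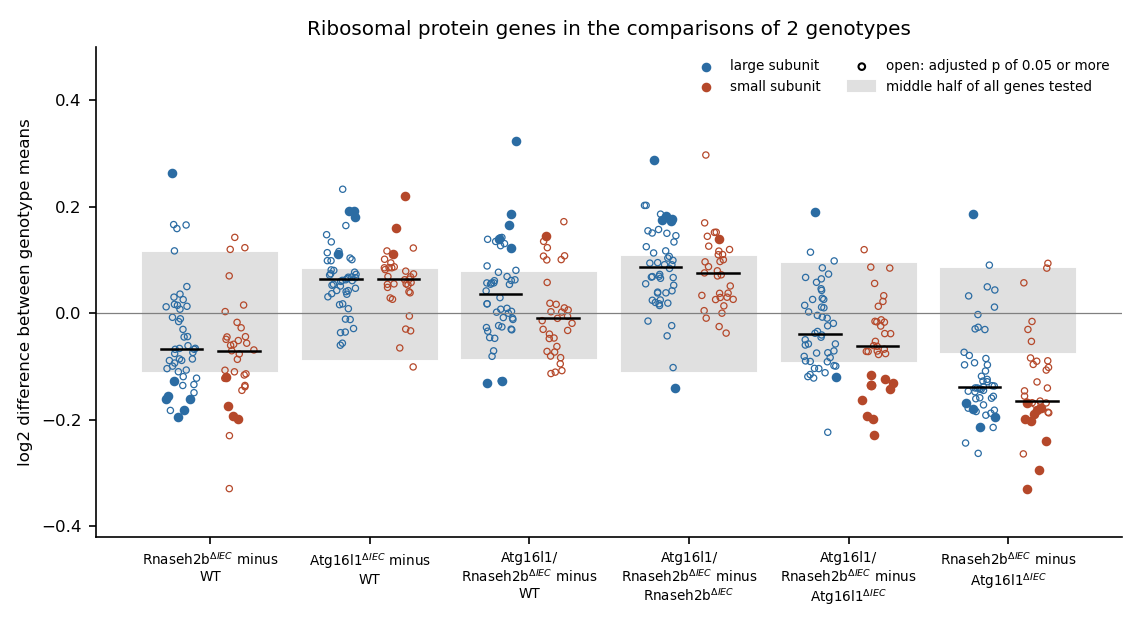
Difference between genotype means (log2, vertical axis) for each ribosomal protein gene in the 6 comparisons of a pair of genotypes, with the large subunit in blue and the small subunit in red. Filled points had an adjusted p under 0.05, black lines are medians, and grey boxes span the middle quartiles of all genes tested. In *Rnaseh2b* ΔIEC against *Atg16l1* ΔIEC organoids, 72 of 81 points are below 0.

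The interaction asks whether the effect of *Rnaseh2b* loss differed with *Atg16l1* intact or deleted. It was called for 4 members, 2 in each direction, which is 4.94% of the members beside 35.1% of all genes tested, and with equal totals for 2 in the positive direction. The median of the members was 0.02 (log2). *Rpl5*, which carries the 5S ribosomal RNA into the large subunit and can bind MDM2, had an interaction of -0.25 ± 0.08 (adjusted p = 0.024). It read 9.70, 9.55, 9.69 and 9.68 in WT, 9.82 and 9.81 in *Rnaseh2b* ΔIEC, 9.91, 9.78, 9.78 and 9.74 in *Atg16l1* ΔIEC, and 9.69, 9.62, 9.74 and 9.80 in *Atg16l1/Rnaseh2b* ΔIEC libraries. Both single knockouts were thus above WT, and the libraries that had lost both genes overlapped WT and *Atg16l1* ΔIEC libraries. *Rpl15* had an interaction of -0.22 (adjusted p = 0.015), *Rpl13a* of 0.22 (adjusted p = 0.049) and *Rpl31*, from the rim of the peptide exit tunnel, of 0.23 (adjusted p = 0.019). Where *Rnaseh2b* ΔIEC library 1 or 2 was left out, interaction calls fell among the members and among all genes tested. The member median was then 0.04 without library 1 and -0.004 without library 2. With lane as a covariate 5 members had a negative and 0 a positive interaction, in a fit that called 20.1% of all genes tested. Of the 4 above, *Rpl5* alone was among them, at -0.41 (adjusted p = 0.029).

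**Figure D3:**
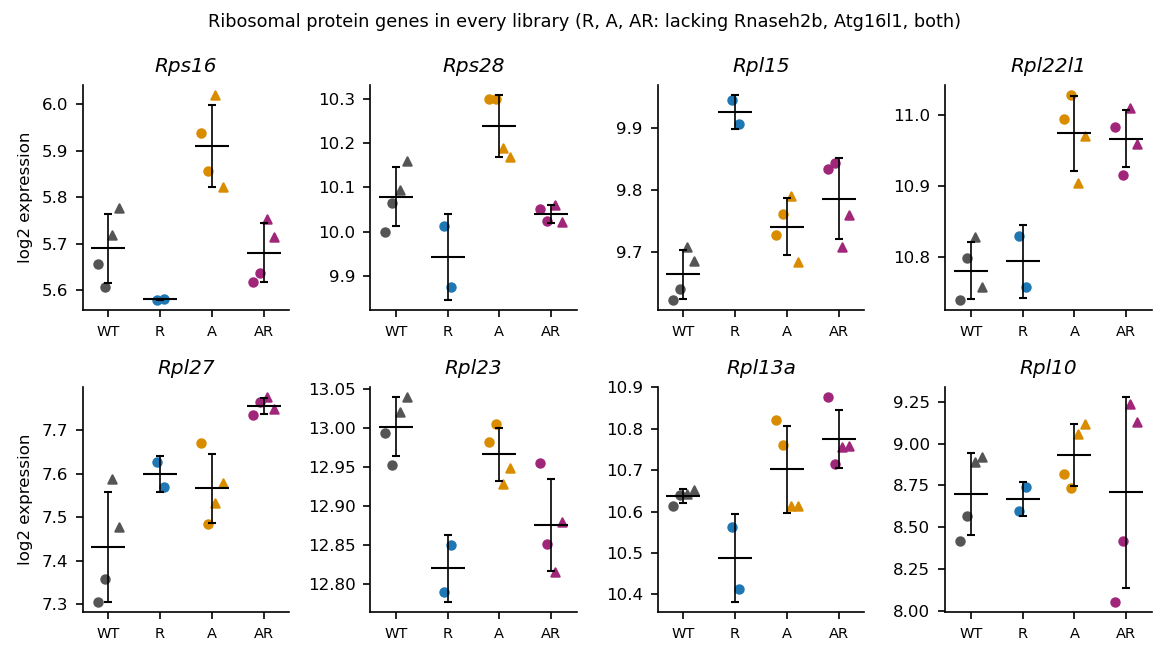
Log2 expression of 8 ribosomal protein genes in each of the 14 libraries, with 1 point per library, circles for libraries 1 and 2, triangles for libraries 3 and 4, and the mean and SD of each genotype as black bars. *Rps16* and *Rps28* are highest in *Atg16l1* ΔIEC libraries, *Rpl15* is highest in *Rnaseh2b* ΔIEC libraries, and *Rpl10* varies within genotypes, from 8.05 to 9.24 in *Atg16l1/Rnaseh2b* ΔIEC libraries.

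The share of the members in each library followed the same order. Their back-transformed values made up 2.34 to 2.43% of the library total in *Rnaseh2b* ΔIEC, 2.50 to 2.73% in WT, 2.55 to 2.67% in *Atg16l1/Rnaseh2b* ΔIEC and 2.60 to 2.87% in *Atg16l1* ΔIEC libraries. Both *Rnaseh2b* ΔIEC libraries were below all others, and the other genotypes overlapped. The median deviation of the members from the WT mean was -0.05 and -0.09 in *Rnaseh2b* ΔIEC libraries and 0.08, 0.10, 0.02 and 0.06 in *Atg16l1* ΔIEC libraries, while WT itself ran from -0.06 to 0.06. The genotype means for the large and small subunit were -0.06 and -0.08 in *Rnaseh2b* ΔIEC, 0.06 and 0.07 in *Atg16l1* ΔIEC and 0.02 and -0.02 in *Atg16l1/Rnaseh2b* ΔIEC organoids. No scaling that was tried turned the sign of a member median.

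Members known for a second role outside the ribosome differed in whether they were called. *Rpl5*, *Rpl23*, *Rpl13a* and *Rps14*, whose protein can also bind MDM2, were called as given above. *Rpl11*, which joins *Rpl5* in the 5S particle that holds MDM2, read 7.30, 7.39, 7.69 and 7.82 in WT and 7.45 and 7.46 in *Rnaseh2b* ΔIEC libraries, and it was called in none of the 7 comparisons. *Rpl26*, *Rps7*, *Rps6* and *Rps27a* were not called in any of them either. The stalk proteins *Rplp0*, on which the stalk is anchored, and *Rplp2* were not called, and *Rpsa*, at the mRNA exit of the small subunit, was not. *Rpl11* and *Rps27a* were among the members that varied most within genotypes.

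*Rpl22* and its paralog *Rpl22l1* were called together between the single knockouts alone. In *Rnaseh2b* ΔIEC against *Atg16l1* ΔIEC organoids *Rpl22* fell by 0.17 ± 0.04 (adjusted p = 0.019) and *Rpl22l1* by 0.18 ± 0.04 (adjusted p = 0.024). *Rpl22* fell in *Rnaseh2b* ΔIEC against WT organoids by 0.13 ± 0.04 (adjusted p = 0.023), where *Rpl22l1* differed by 0.01, and *Rpl22l1* rose in *Atg16l1* ΔIEC against WT organoids, where *Rpl22* differed by 0.04. The difference between the paralogs was not tested. *Rps27* was never called, and *Rps27l* was called in *Atg16l1/Rnaseh2b* ΔIEC against WT organoids. *Rpl36a*, *Rpl36al*, *Rpl7*, *Rpl7l1*, *Rps19bp1*, whose product binds RPS19 without being a ribosomal protein, *Rpl3* and *Rpl10* were called in none of the comparisons. Without the 5 paralogs and name-sharing genes, the counts of members called in the order above were 11, 6, 6, 6, 12, 13 and 4 of 76. *Fau* and *Rack1*, a signalling scaffold on the small subunit, encode ribosomal proteins under other symbols and were not called in any comparison. *Rack1*, nearly unique with 99.1% of its stretches, read 16.25, 16.26, 16.23 and 16.30 in WT and 16.14 and 16.09 in *Rnaseh2b* ΔIEC libraries.

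Some members with much shared sequence varied widely within genotypes. The median SD of a member within genotypes was 0.07 (log2) and that of all genes tested 0.08, yet *Rpl10*, with 7.87% unique stretches, had an SD of 0.36, and *Rps13*, with 17%, of 0.35. *Rpl10* read 8.42, 8.57, 8.89 and 8.92 in WT, 8.82, 8.74, 9.06 and 9.12 in *Atg16l1* ΔIEC and 8.05, 8.42, 9.24 and 9.13 in *Atg16l1/Rnaseh2b* ΔIEC libraries, so libraries 3 and 4 were the higher pair in each of these genotypes. *Rps13* read 6.76, 6.91, 7.44 and 7.40 in WT and 6.57, 6.76, 7.61 and 7.45 in *Atg16l1/Rnaseh2b* ΔIEC libraries, with the same order of pairs. Among the 10 members with at least 80% unique stretches, 2, 0, 1, 0, 2, 1 and 0 were called in the order above, and their median in *Rnaseh2b* ΔIEC against WT organoids was -0.11. *Rpl10* and *Rps13* were picked after their spread was seen, and the part of shared sequence in it was not tested.

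Many members have a pyrimidine run near their annotated start, which in some, such as *Rpl13* and *Rpl4*, lies wholly upstream of it. Windows of 30 bases around RefSeq transcription starts (GRCm38.p6), with 15 bases on each side, were searched on the coding strand for a run of at least 8 letters that are each C or T, and a gene with several starts counted once. A start was found for 61 members, of which 27 (44.3%) had such a run, against 1506 of 10043 genes tested (15%) and 9 of 69 mitochondrial ribosomal protein genes (13%). Windows are shown for members that were called, with the run in capitals, and for *Rps16* and *Rps28*, which rose in *Atg16l1* ΔIEC organoids and have no such run. They are exonic in their second part and reach into the promoter in their first, at chr14:18270972-18271001 (- strand) for *Rpl15*, chr3:28805493-28805522 (+) for *Rpl22l1*, chr7:109519180-109519209 (+) for *Rpl27a*, chr7:45128731-45128760 (-) for *Rpl13a*, chr2:39005117-39005146 (-) for *Rpl35*, chr17:33955651-33955680 (-) for *Rps18*, chr7:28350674-28350703 (+) for *Rps16* and chr17:33824548-33824577 (-) for *Rps28*.
Rpl15: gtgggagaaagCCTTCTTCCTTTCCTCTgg
Rpl22l1: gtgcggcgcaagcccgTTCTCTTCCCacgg
Rpl27a: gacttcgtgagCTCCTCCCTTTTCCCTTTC
Rpl13a: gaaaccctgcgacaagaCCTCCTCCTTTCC
Rpl35: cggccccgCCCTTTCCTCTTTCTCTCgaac
Rps18: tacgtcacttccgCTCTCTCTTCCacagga
Rps16: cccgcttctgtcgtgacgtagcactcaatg
Rps28: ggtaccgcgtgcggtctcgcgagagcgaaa

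Other mRNAs known for a pyrimidine tract at the 5′ end, such as those of elongation factors, were called at a lower share than all genes tested, except where WT was compared with the loss of both genes. Of 19 such genes, 0 rose and 3 fell in *Rnaseh2b* ΔIEC against WT organoids, 15.8% beside 26.7%, among them *Eef1b2*, a nucleotide exchange factor of elongation, by 0.16 ± 0.05 (adjusted p = 0.024) and *Eif4a2*, an initiation helicase, by 0.39 ± 0.12 (adjusted p = 0.035). With lane as a covariate, the difference of *Eif4a2* was 0.00. In *Atg16l1* ΔIEC against WT organoids 0 were called by limma, with 1 at an unadjusted p under 0.05. In *Atg16l1/Rnaseh2b* ΔIEC organoids 4 rose against WT, led by *Cct3*, a subunit of the chaperonin that folds actin, by 0.21 ± 0.06 (adjusted p = 0.035), which is 21.1% beside 16.1%. There, 2 rose against *Rnaseh2b* ΔIEC and 2 against *Atg16l1* ΔIEC organoids. Between the single knockouts *Eef1b2* fell by 0.19 ± 0.05 (adjusted p = 0.035) in *Rnaseh2b* ΔIEC organoids. In the interaction, *Pabpc1*, the poly(A)-binding protein, was called with 0.17 ± 0.06 (adjusted p = 0.045). When the correlation within pairs was estimated, limma called 0 of the 19 genes in each comparison, with 2, 1, 4, 2, 2, 1 and 1 at an unadjusted p under 0.05. A start was found for 14 of them, of which 4 (28.6%) had a pyrimidine run as defined above.

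With the libraries taken as independent, many genes of ribosome assembly were called higher where both genes were lost. Against WT, 26 of 45 assembly genes rose and 0 fell in *Atg16l1/Rnaseh2b* ΔIEC organoids, 57.8% beside 16.1% of all genes tested, with a median difference of 0.19 (log2). Once the correlation within pairs was estimated, limma called 1 of the 45, with 29 at an unadjusted p under 0.05, a count without the share of all genes beside it. *Heatr1*, which is needed for transcription and processing of ribosomal RNA, read 10.03, 9.99, 10.15 and 10.16 in WT and 10.70, 10.51, 10.41 and 10.27 in *Atg16l1/Rnaseh2b* ΔIEC libraries. All 4 were above WT, and it rose by 0.39 ± 0.08 (adjusted p = 0.010). *Ddx21*, a nucleolar helicase, rose by 0.39 ± 0.07 (adjusted p = 0.0059). In the same organoids 12 rose and 0 fell against *Rnaseh2b* ΔIEC (26.7% beside 25.5%), and 18 rose and 0 fell against *Atg16l1* ΔIEC organoids (40% beside 25.1%), there led by *Heatr1* and *Rrp1b*, by 0.42 each. With the correlation within pairs estimated, 1, 1 and 3 assembly genes were called in these comparisons, and with lane as a covariate 8, 16 and 29. For the fit with lane, the share of all genes called is given above against *Atg16l1* ΔIEC organoids alone. The counts of 8 and 16 thus stand without that background. In the single knockouts the counts were low, with 3 risen and 1 fallen in *Rnaseh2b* ΔIEC and 1 risen and 1 fallen in *Atg16l1* ΔIEC against WT organoids. Between the single knockouts 0 were called by limma, with 4 at an unadjusted p under 0.05, and 9 had a positive and 0 a negative interaction. The shares against WT were 8.89% beside 26.7% of all genes tested and 4.44% beside 19.1%, and that of the interaction was 20% beside 35.1%. In these comparisons limma called 0, 0 and 2 with the correlation estimated, with 3, 3 and 8 at an unadjusted p under 0.05.

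Genes of RNA polymerase I, which transcribes the large ribosomal RNA precursor, were called in the organoids that had lost both genes at shares near those of all genes tested, except against *Atg16l1* ΔIEC organoids. The list of 17 genes holds subunits and factors of the enzyme together with *Top1* and *Nop53*, which are not subunits of it. Of these 17, 3 rose and 0 fell in *Atg16l1/Rnaseh2b* ΔIEC against WT organoids (17.6% beside 16.1%), and 5 rose and 0 fell against *Rnaseh2b* ΔIEC organoids (29.4% beside 25.5%). Against *Atg16l1* ΔIEC organoids 7 rose and 1, *Nop53*, fell (47.1% beside 25.1%). With the correlation within pairs estimated, limma called 0, 1 and 2 of them, with 4, 4 and 7 at an unadjusted p under 0.05. *Polr1e* rose by 0.33 ± 0.06 (adjusted p = 0.0053) against WT, and *Polr1b*, the second largest subunit of the enzyme, by 0.42 ± 0.07 (adjusted p = 0.0021) against *Atg16l1* ΔIEC organoids. In *Rnaseh2b* ΔIEC against WT organoids 1 rose and 2 fell, *Top1* and *Nop53*. In *Atg16l1* ΔIEC against WT organoids 1 rose and 1 fell, the latter *Top1*. Between the single knockouts 1 was called, *Nop53*, which was lower in *Rnaseh2b* ΔIEC organoids. The interaction was positive for 4 and negative for 1. These shares were all below those of all genes tested, at 17.6, 11.8, 5.88 and 29.4% beside 26.7, 19.1, 6.81 and 35.1%. The correlation estimate gave 0, 0, 0 and 3 calls by limma, with 2, 2, 1 and 5 at an unadjusted p under 0.05.

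**Figure D4:**
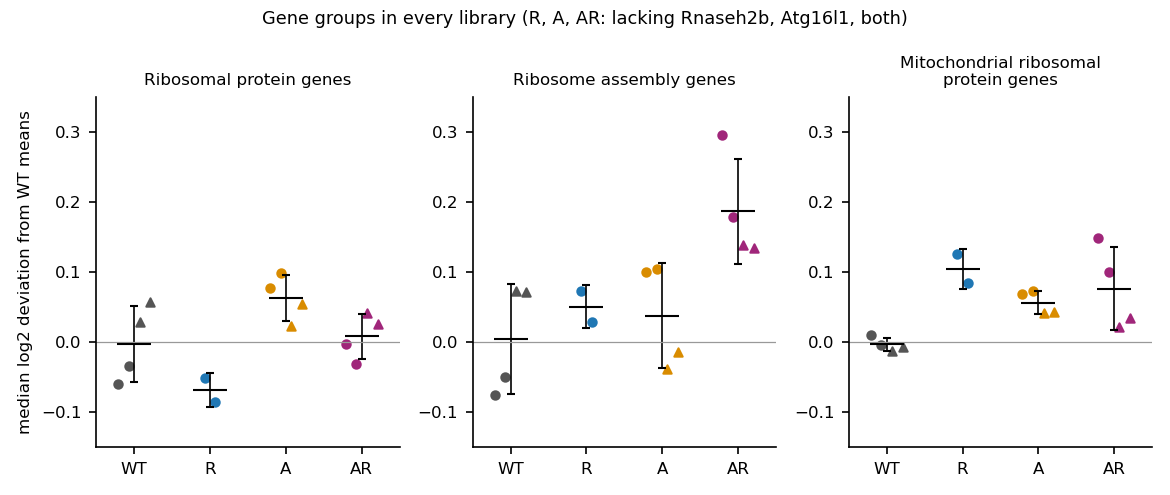
Median deviation from the WT means (log2, vertical axis) of the ribosomal protein, ribosome assembly and mitochondrial ribosomal protein genes in each of the 14 libraries, with 1 point per library, circles for libraries 1 and 2, triangles for libraries 3 and 4, and the mean and SD of each genotype as black bars. The assembly genes are highest in *Atg16l1/Rnaseh2b* ΔIEC libraries, whereas the ribosomal protein genes there run from -0.03 to 0.04, within the WT range of -0.06 to 0.06.

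Known regulators of ribosomal protein mRNA and ribosome output included genes with larger differences than any member. *Myc*, a transcription factor that drives ribosome production, read 10.25, 10.24, 10.18 and 10.30 in WT, 9.81 and 9.77 in *Rnaseh2b* ΔIEC, 9.74, 9.55, 9.46 and 9.44 in *Atg16l1* ΔIEC and 10.78, 10.69, 10.29 and 10.34 in *Atg16l1/Rnaseh2b* ΔIEC libraries. It was lower in both single knockouts than in WT, by 0.69 ± 0.10 (adjusted p = 0.00048) in *Atg16l1* ΔIEC organoids, where most members were above WT. It was higher by 0.98 ± 0.10 (adjusted p = 6.1e-05) in *Atg16l1/Rnaseh2b* ΔIEC than in *Atg16l1* ΔIEC organoids, and its interaction was 1.43 ± 0.16 (adjusted p = 4.8e-05). *Ddit4*, an inhibitor of mTORC1, fell by 0.94 ± 0.16 (adjusted p = 0.0011) in *Rnaseh2b* ΔIEC and by 0.92 ± 0.13 (adjusted p = 0.00041) in *Atg16l1* ΔIEC against WT organoids. *Eif4ebp2*, a repressor of cap-dependent translation, rose in both, by 0.25 ± 0.03 (adjusted p = 0.00036) and 0.21 ± 0.03 (adjusted p = 0.00030).

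Of the 27 regulators, 3 rose and 8 fell in *Rnaseh2b* ΔIEC, 2 rose and 5 fell in *Atg16l1* ΔIEC and 1 rose and 3 fell in *Atg16l1/Rnaseh2b* ΔIEC against WT organoids, which is 40.7, 25.9 and 14.8% beside 26.7, 19.1 and 16.1% of all genes tested. In *Atg16l1/Rnaseh2b* ΔIEC organoids 5 rose and 2 fell against *Rnaseh2b* ΔIEC and 4 rose and 3 fell against *Atg16l1* ΔIEC organoids. Between the single knockouts 1 rose and 0 fell, and the interaction was positive for 8 and negative for 2. In the latter comparisons the shares were 25.9, 25.9, 3.7 and 37% beside 25.5, 25.1, 6.81 and 35.1%. On estimating the correlation within pairs, limma called 4, 4, 0, 2, 2, 0 and 7 regulators in the order above, with 8, 6, 6, 7, 8, 2 and 8 at an unadjusted p under 0.05. Among 17 genes of ribosome quality control and turnover, the counts of rises and falls in the same order were 2 and 4, 0 and 3, 1 and 1, 5 and 2, 5 and 0, 1 and 0, and 8 and 2. These are 35.3, 17.6, 11.8, 41.2, 29.4, 5.88 and 58.8% of the list, beside 26.7, 19.1, 16.1, 25.5, 25.1, 6.81 and 35.1% of all genes tested. With the correlation estimated, limma called 0, 1, 0, 0, 0, 0 and 3 of them, with 4, 2, 2, 4, 4, 1 and 7 at an unadjusted p under 0.05. *Hbs1l*, which rescues stalled ribosomes together with Pelota, fell against WT by 0.38 ± 0.04 (adjusted p = 0.00012) on loss of *Atg16l1* and by 0.23 ± 0.04 (adjusted p = 0.0055) on loss of both genes. *Ascc3*, a helicase that splits collided ribosomes, was lower in *Rnaseh2b* ΔIEC than in WT organoids, where it fell by 0.21 ± 0.06 (adjusted p = 0.024), and higher by 0.29 ± 0.06 (adjusted p = 0.0051) where *Atg16l1* was deleted too.

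The mitochondrial ribosomal protein genes, whose mRNAs have little shared sequence, lay mostly above WT in every knockout, at 63 of 77 tested after loss of *Rnaseh2b*, 60 after loss of *Atg16l1* and 64 after loss of both. Past the threshold 23 rose and 1 fell in *Rnaseh2b* ΔIEC against WT organoids, 31.2% beside 26.7% of all genes tested, with a median of 0.10 (log2), led by *Mrps11* with 0.37 ± 0.07 (adjusted p = 0.0032) and *Mrpl20* with 0.34 ± 0.06 (adjusted p = 0.0011). With the correlation within pairs estimated 5 of them were called, and with lane as a covariate 1. Against WT, 19 rose and 2 fell in *Atg16l1* ΔIEC (27.3% beside 19.1%) and 15 rose and 1 fell in *Atg16l1/Rnaseh2b* ΔIEC organoids (20.8% beside 16.1%). The fit with the correlation estimated called 1 and 0 here, with 16 and 11 at an unadjusted p under 0.05 by limma. In *Atg16l1/Rnaseh2b* ΔIEC organoids 0 rose and 9 fell against *Rnaseh2b* ΔIEC, and 6 rose and 1 fell against *Atg16l1* ΔIEC organoids, 11.7% beside 25.5% and 9.09% beside 25.1%, and limma called 0 of these with the correlation estimated, with 8 and 3 at an unadjusted p under 0.05. Between the single knockouts 3 were higher in *Rnaseh2b* ΔIEC organoids and 0 lower, and the interaction was positive for 3 and negative for 17. This is 3.9% beside 6.81% and 26% beside 35.1% of all genes tested, and limma called 0 and 5 with the correlation estimated, with 5 and 14 at an unadjusted p under 0.05. *Mrps10* fell in each knockout against WT, by 0.25 ± 0.04 (adjusted p = 0.0015), 0.20 ± 0.04 (adjusted p = 0.0024) and 0.28 ± 0.04 (adjusted p = 0.00089).

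Markers of the epithelial cell types moved by far more than the ribosomal protein genes in the same organoids. Of 13 enterocyte markers, 12 rose and 0 fell in *Rnaseh2b* ΔIEC against WT organoids, 92.3% beside 26.7% of all genes tested. Their median was 1.03 (log2), and *Lct*, the lactase gene, rose by 1.56 ± 0.35 (adjusted p = 0.0063). The estimate of the correlation within pairs gave 6 calls, and with lane as a covariate there were 3. Their summed linear level was 447790 and 488363 in *Rnaseh2b* ΔIEC libraries, 222453 to 333331 in WT, 260131 to 426889 in *Atg16l1* ΔIEC and 189917 to 268955 in *Atg16l1/Rnaseh2b* ΔIEC libraries. The *Rnaseh2b* ΔIEC libraries were thus highest in enterocyte markers and lowest in the share of ribosomal protein mRNA in the library total. By the median deviation of the members, WT library 1, at -0.06, was below *Rnaseh2b* ΔIEC library 1, at -0.05. Fewer cells of a type and less RNA per cell cannot be told apart in such bulk samples, and the part of cell type composition in the differences of the members was not tested. The other counts of enterocyte markers were 2 risen and 0 fallen in *Atg16l1* ΔIEC and 1 risen and 2 fallen in *Atg16l1/Rnaseh2b* ΔIEC against WT, 11 fallen against *Rnaseh2b* ΔIEC, 4 fallen against *Atg16l1* ΔIEC, and 4 higher in *Rnaseh2b* ΔIEC than in *Atg16l1* ΔIEC organoids. The interaction was negative for 11. In this order the shares were 15.4, 23.1, 84.6, 30.8, 30.8 and 84.6% beside 19.1, 16.1, 25.5, 25.1, 6.81 and 35.1% of all genes tested. The fit with the correlation estimated called 0, 0, 8, 1, 0 and 8 by limma, with 4, 3, 12, 6, 7 and 11 at an unadjusted p under 0.05.

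Markers of crypt cells and p53 targets moved as well. Against WT, 7 of 9 stem cell markers fell in *Atg16l1* ΔIEC organoids, 2 in *Rnaseh2b* ΔIEC organoids and 1 where both genes were lost, and none rose. These are 77.8, 22.2 and 11.1% beside 19.1, 26.7 and 16.1% of all genes tested, and with the correlation within pairs estimated limma called 2, 1 and 0 of them, with 8, 2 and 2 at an unadjusted p under 0.05. *Lgr5*, the receptor that marks cycling stem cells, fell by 0.97 ± 0.13 (adjusted p = 0.00032) in *Rnaseh2b* ΔIEC and by 0.85 ± 0.11 (adjusted p = 0.00024) in *Atg16l1* ΔIEC against WT organoids. Of 16 proliferation markers, 1 rose and 2 fell in *Rnaseh2b* ΔIEC, 2 rose and 2 fell in *Atg16l1* ΔIEC and 5 rose and 0 fell in *Atg16l1/Rnaseh2b* ΔIEC against WT organoids. This is 18.8, 25 and 31.2% of the list, beside 26.7, 19.1 and 16.1% of all genes tested, and limma with the correlation estimated called 1, 0 and 0, with 3, 3 and 5 at an unadjusted p under 0.05. Among 21 p53 targets, a list that includes *Rps27l*, 10 rose and 1 fell in *Rnaseh2b* ΔIEC, 3 rose and 3 fell in *Atg16l1* ΔIEC and 10 rose and 0 fell in *Atg16l1/Rnaseh2b* ΔIEC against WT organoids, the last led by *Phlda3* with 0.47 ± 0.06 (adjusted p = 0.00062). In *Atg16l1/Rnaseh2b* ΔIEC organoids, 10 p53 targets rose and 1 fell against *Atg16l1* ΔIEC, and 2 rose and 1 fell against *Rnaseh2b* ΔIEC organoids. In the order of these 5 counts, 52.4, 28.6, 47.6, 52.4 and 14.3% of the p53 targets were called beside 26.7, 19.1, 16.1, 25.1 and 25.5% of all genes tested. With the correlation estimated, limma called 2, 0, 3, 3 and 0, with 8, 3, 11, 11 and 4 at an unadjusted p under 0.05.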

How the data were processed

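For their own tests the authors used DESeq2, after trimming by cutadapt, alignment to GRCm38 by TopHat2 and counting by HTSeq. The authors deposited values on a log2 scale without naming the transformation. TopHat2 reports reads with several matching places, which a count per gene may drop, and this bears on members with shared sequence.

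Gene IDs were matched to GENCODE M21 (99.7%), and 0 columns were left without a sample. Genes with a mean of at least 3.32 (log2) were tested with limma 3.58.1 in R 4.3.3, by lmFit, contrasts.fit and eBayes with trend=TRUE. Each genotype had its own mean, the 14 libraries shared an estimate of spread, no covariate was used, and p-values were adjusted over 12804 genes by Benjamini-Hochberg, with 0.05 as the threshold. The procedure was tested on simulated data. The principal transcript was the APPRIS principal one of the basic set. Figures were drawn with matplotlib 3.10.9.

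The members and the gene lists were chosen with earlier results of these data known. Named genes were a fixed set of members by role, the 5 largest rises and falls among called members without overlap in each comparison, and the 2 largest rises and falls of each list, of which the text gives a part. Results of some of these genes are not reported here.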

Additional observations from a re-analysis of the deposited data

Results flagged for a closer look

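In a group of 4 libraries, a value was set apart where its gap to the nearest other library as a share of the whole range exceeded Dixon's critical value. This was so in 7 of 144 groups of members and related genes, and chance gives about 1 in 20. The share was 0.951 for *Rpl39* in *Atg16l1/Rnaseh2b* ΔIEC, where library 1 read 11.49 and the others 11.35 to 11.36, and 0.896 for *Rps4x*, where library 1 of the same genotype read 13.16 and the others 13.05 to 13.06. In WT it was 0.946 for *Rps19*, where library 4 read 13.07 and the others 12.92 to 12.93, 0.888 for *Rpl5*, where library 2 read 9.55 and the others 9.68 to 9.70, and 0.875 for *Fau*, where library 4 read 5.11 and the others 5.01 to 5.02. In *Atg16l1* ΔIEC it was 0.946 for *Rps19bp1*, where library 3 read 9.001 and the others 9.15 to 9.16, and 0.914 for *Rps7*, where library 1 read 6.004 and the others 6.21 to 6.23.

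The effect of *Rnaseh2b* loss differed with and without *Atg16l1*, by the limma interaction, for 4 members. The differences were -0.25 for *Rpl5*, -0.22 for *Rpl15*, 0.22 for *Rpl13a* and 0.23 for *Rpl31* (log2). This is 4.94% of the members beside 35.1% of all genes tested. Once the correlation within pairs was estimated, limma called 0 members, with 2 at an unadjusted p under 0.05, and with lane as a covariate *Rpl5* alone of these 4 was called.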

How the results depend on the processing

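Nothing in the deposited table gives read depth, so its limit on low members is unknown. Other pseudocounts (1 and 5) and a filter at 50 kept each count of members called within 1.5 times its main value. With equal totals of the genes outside the family, 17 members were called in *Rnaseh2b* ΔIEC against WT (median -0.11), 19 in *Atg16l1/Rnaseh2b* ΔIEC against *Rnaseh2b* ΔIEC (0.14), 7 against *Atg16l1* ΔIEC, 26 between the single knockouts (-0.18) and 2 in the interaction (0.0785). With equal totals of all genes, the median in *Rnaseh2b* ΔIEC against WT was -0.11, 4 members were called in *Atg16l1* ΔIEC against WT, 17 in *Atg16l1/Rnaseh2b* ΔIEC against *Rnaseh2b* ΔIEC (0.13), 7 against *Atg16l1* ΔIEC, 24 between the single knockouts and 2 in the interaction (0.0768). With equal upper quartiles 24 were called between the single knockouts.

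Within 1 lane, 5 members were called in *Atg16l1/Rnaseh2b* ΔIEC against WT and 3 against *Rnaseh2b* ΔIEC. With lane as a covariate, 5 were called in *Rnaseh2b* ΔIEC against WT and 29 between the single knockouts, where the share of all genes called by that fit is not given. Without a filter, 5 were called in *Atg16l1/Rnaseh2b* ΔIEC against WT and 4 against *Rnaseh2b* ΔIEC. In fits of only the groups compared, 4 were called in *Atg16l1* ΔIEC against WT, 2 in *Atg16l1/Rnaseh2b* ΔIEC against WT and 7 between the single knockouts. With the replicate number as a block, 3 were called in *Atg16l1/Rnaseh2b* ΔIEC against *Rnaseh2b* ΔIEC and 5 between the single knockouts. The labels do not say whether the numbers pair libraries across genotypes. Among the genotypes with 4 libraries, deviations of libraries of the same number correlated at 0.41 to 0.75 over the members and at -0.50 to 0.30 over all genes tested. Between *Rnaseh2b* ΔIEC and other libraries of the same number, the range was -0.51 to 0.63 over the members and -0.22 to 0.44 over all genes tested. With the correlation within pairs estimated, limma called 0 members in each comparison, with the counts at an unadjusted p under 0.05 given above. Among members with at least 80% unique stretches, a choice made after seeing the data, 2 were called in *Rnaseh2b* ΔIEC against WT (median -0.11), 0 in *Atg16l1* ΔIEC against WT, 1 in *Atg16l1/Rnaseh2b* ΔIEC against WT, 0 against *Rnaseh2b* ΔIEC and 2 against *Atg16l1* ΔIEC, 1 between the single knockouts and 0 in the interaction, of 10 members. The planned version of this choice, against the whole genome sequence, was not run. The causes of these shifts were not tested.

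Leaving out each library in turn gave 1 to 14 calls in *Rnaseh2b* ΔIEC against WT (median -0.10 to -0.04), 3 to 11 in *Atg16l1* ΔIEC against WT (0.04 to 0.08), 3 to 7 in *Atg16l1/Rnaseh2b* ΔIEC against WT (-0.01 to 0.03), 0 to 9 against *Rnaseh2b* ΔIEC (0.06 to 0.10), 6 to 13 against *Atg16l1* ΔIEC (-0.06 to -0.04), 0 to 23 between the single knockouts (-0.16 to -0.12) and 1 to 5 in the interaction (-0.00 to 0.04). Where 1 *Rnaseh2b* ΔIEC library was left, it was taken to vary like the other groups. The ranges of calls among all genes tested are not given beside these.

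Of 11378 values of named genes under these alternatives, 9765 kept their direction and side of the threshold, 1283 lost their call, 76 gained one, 249 moved and 5 turned. *Rpl11* in *Atg16l1/Rnaseh2b* ΔIEC against *Atg16l1* ΔIEC was -0.24 (adjusted p = 0.046) within 1 lane. With lane as a covariate, *Rpl10* in *Rnaseh2b* ΔIEC against WT was 0.92 (adjusted p = 0.023), *Eif4a2* in the same comparison was 0.004, *Nupr1* in *Atg16l1* ΔIEC against WT was 0.23 and its interaction was -0.24. For *Rpl10*, the lane term is the difference of 0.95 between libraries 3 and 4 and libraries 1 and 2 of *Atg16l1/Rnaseh2b* ΔIEC organoids. Within 1 lane the same difference was 0.41 in WT and 0.31 in *Atg16l1* ΔIEC libraries, so lane and pair cannot be told apart in the covariate.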

Other observations

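Goblet cell markers rose in *Atg16l1/Rnaseh2b* ΔIEC organoids against the single knockouts. Of 8 goblet cell markers, 8 rose there against *Atg16l1* ΔIEC and 7 against *Rnaseh2b* ΔIEC organoids, with medians of 0.60 and 0.73 (log2), and 1 rose and 1 fell against WT. These are 100, 87.5 and 25% of the list beside 25.1, 25.5 and 16.1% of all genes tested. With the correlation within pairs estimated, 3 and 5 goblet cell markers were called against the single knockouts, and limma called 0 against WT, with 3 at an unadjusted p under 0.05. *Clca1*, a secreted goblet cell protease, fell by 1.68 ± 0.13 (adjusted p = 6.5e-06) in *Rnaseh2b* ΔIEC against WT organoids, where 3 of the 8 fell, and 5 fell in *Atg16l1* ΔIEC against WT organoids. This is 37.5% beside 26.7% and 62.5% beside 19.1% of all genes tested, and 2 were called in each with the correlation estimated. Of 11 Paneth cell markers, 4 rose in *Atg16l1/Rnaseh2b* ΔIEC against WT (36.4% beside 16.1%), 2 against *Rnaseh2b* ΔIEC (18.2% beside 25.5% of all genes tested) and 6 against *Atg16l1* ΔIEC organoids (54.5% beside 25.1%). With the correlation estimated, limma called 0, 1 and 3 Paneth cell markers in these comparisons, with 7, 3 and 7 at an unadjusted p under 0.05. Of 8 enteroendocrine markers, 1, 4 and 3 rose in the same comparisons, 12.5, 50 and 37.5% beside 16.1, 25.5 and 25.1%, against 0, 1 and 2 called by limma with the correlation estimated and 1, 5 and 3 at an unadjusted p under 0.05. *Chga* alone of these markers fell in *Atg16l1* ΔIEC against WT organoids, 12.5% beside 19.1% of all genes tested. *Nupr1* alone of the Paneth cell markers fell in each single knockout against WT, 9.09% beside 26.7 and 19.1% of all genes tested. These calls of *Chga* and *Nupr1* were lost with the correlation estimated, where limma called 0 markers of either list. With lane as a covariate the direction of *Nupr1* turned in *Atg16l1* ΔIEC against WT organoids. Of 4 tuft cell markers tested, 3 fell in *Rnaseh2b* ΔIEC against WT organoids, 75% beside 26.7% of all genes tested, and 1 was called with the correlation estimated. Of 7 stromal and immune markers tested, *Pdgfrb* alone was called in *Atg16l1/Rnaseh2b* ΔIEC against WT organoids, where it fell by 0.26 ± 0.07 (adjusted p = 0.031). This is 14.3% beside 16.1% of all genes tested, and with the correlation estimated limma called 0, with 1 at an unadjusted p under 0.05.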
